A study of Homo sapiens with 16 samples.

Results

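The genes described here are 10 genes of the insulin-like growth factor (IGF) axis: the ligand IGF2, the receptors IGF1R and IGF2R, the binding proteins IGFBP2, IGFBP3, IGFBP4, IGFBP5, IGFBP6 and IGFBP7, and the adaptor IRS1. They were taken by symbol from the count table, in which all 10 were found among 27037 genes, and all 10 were among the 15415 genes with enough counts to be tested. The cells were SK-N-BE(2)C, an adrenergic neuroblastoma line with MYCN amplification, and the question was whether a cell-cycle inhibitor and a retinoid together move such cells towards a differentiated, non-dividing state. RNA sequencing covered 4 groups of 4 replicates, cultured with serum and treated for 5 days. The groups were DMSO (vehicle), RA (10 µM retinoic acid), PB (1 µM palbociclib, an inhibitor of the kinases CDK4 and CDK6) and PB+RA (1 µM palbociclib with 10 µM retinoic acid). All results are therefore from 1 cell line, and the replicates were separately plated passages of it.

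IGF2 is a growth factor of fetal tissues, normally expressed from the paternal allele, and is known as an autocrine and paracrine growth and survival factor in neuroblastoma. It signals through IGF1R, a receptor tyrosine kinase that recruits adaptors such as IRS1 and activates the PI3K and AKT pathway, whereas IGF2R, which lacks a kinase and also carries mannose-6-phosphate-tagged enzymes, takes IGF2 to lysosomes for degradation. The secreted IGFBPs hold IGFs outside the cell and can limit or prolong their access to the receptor, while proteases cleave the IGFBPs and release the ligand.

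The libraries held 19.5 to 31.6 M counts, and a gene with 0 counts could lie at up to 0.0949 to 0.154 CPM (counts scaled to an equal library total), depending on the library. All 6 adrenergic markers examined (PHOX2A, HAND2, GATA3, ISL1, DBH and TH) were present, with summed levels from 2143 to 2397 CPM in DMSO, 2483 to 2786 in RA, 2751 to 3037 in PB and 2686 to 3570 in PB+RA. Single markers differed in direction. From DMSO to RA the group means went from 881 to 1085 CPM for PHOX2A, 339 to 502 for DBH and 85.9 to 198 for TH. They went from 790 to 720 for HAND2, 107 to 58.1 for GATA3 and 71.1 to 62.5 for ISL1. Mesenchymal markers were also examined, and 5 of the 6 were in the table (FOSL1, FOSL2, VIM, CD44 and YAP1). Their sum was 864 to 1102 CPM in DMSO, 1066 to 1281 in RA, 720 to 868 in PB and 684 to 864 in PB+RA, mostly from VIM. From DMSO to PB the mean of VIM went from 862 to 576 CPM and that of CD44 from 88.9 to 149.5. Of 5 Schwann cell and fibroblast markers, COL1A2 was near 0, with group means of at most 0.179 CPM, and none was at 0 in all samples. The list summed to 63.1 to 118 CPM in DMSO, 68.8 to 152 in RA, 112 to 147 in PB and 57.7 to 104 in PB+RA, mostly from LUM, COL1A1 and DCN, and its part in the results was not tested. In bulk RNA, fewer cells that express a gene and less RNA of it per cell cannot be told apart.

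Except for IGFBP6, IGFBP7 and IRS1, the genes were well expressed, with means over the 16 samples from 49.4 CPM for IGFBP3 to 295 CPM for IGF2R. Per kilobase of the canonical transcript, the mean level in DMSO was 66.7 CPM for IGFBP2, 37.7 for IGFBP4, 27.7 for IGF2, 19.9 for IGFBP5, 14.4 for IGF2R, 13.3 for IGF1R, 11.9 for IGFBP3, 2.33 for IGFBP6, 1.60 for IRS1 and 0.618 for IGFBP7. On this scale IGFBP2 lay above all other genes in every DMSO sample, the ranges of neighbours overlapped from IGFBP4 down to IGFBP3 and between IGFBP6 and IRS1, and the order of IGFBP2 and IGFBP4 turned around when the length of all annotated exons was used instead. IGF1, the other ligand of IGF1R, had 0 counts in 15 of the 16 samples and 2 counts in PB replicate 2.

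Promoter sequence is shown for IGF2R, IGFBP4, IGFBP6 and IRS1, the 4 genes with the lowest adjusted p-values for PB+RA against DMSO. Each window holds the 250 bases before the annotated start, from RefSeq on GRCh38.p14, written in the direction of transcription. They are chr6:159968832-159969081 on the plus strand for IGF2R, chr17:40443200-40443449 on the plus strand for IGFBP4, chr12:53097417-53097666 on the plus strand for IGFBP6 and chr2:226799821-226800070 on the minus strand for IRS1. Capitals mark matches on either strand. The motif called an E-box was CACGTG. The GC box was searched as GGGCGG and the TATA box as TATAAA. The forms of a nuclear receptor half-site were AGGTCA, its variant with middle T spelled AGTTCA, the form with a leading G spelled GGGTCA, and the form with both of these changes spelled GGTTCA. The E2F motif was searched as TTTCGCGC, TTTGGCGC or TTTCCCGC.
IGF2R: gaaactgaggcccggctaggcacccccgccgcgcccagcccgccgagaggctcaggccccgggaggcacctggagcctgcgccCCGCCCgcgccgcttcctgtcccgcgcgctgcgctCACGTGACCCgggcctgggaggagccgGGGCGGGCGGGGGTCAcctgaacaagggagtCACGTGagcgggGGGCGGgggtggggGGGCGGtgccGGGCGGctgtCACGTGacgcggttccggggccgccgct
IGFBP4: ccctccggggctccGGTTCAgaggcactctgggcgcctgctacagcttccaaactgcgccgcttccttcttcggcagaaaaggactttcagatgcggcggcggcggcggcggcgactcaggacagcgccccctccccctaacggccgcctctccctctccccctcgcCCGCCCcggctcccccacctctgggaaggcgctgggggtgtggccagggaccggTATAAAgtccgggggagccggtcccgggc
IGFBP6: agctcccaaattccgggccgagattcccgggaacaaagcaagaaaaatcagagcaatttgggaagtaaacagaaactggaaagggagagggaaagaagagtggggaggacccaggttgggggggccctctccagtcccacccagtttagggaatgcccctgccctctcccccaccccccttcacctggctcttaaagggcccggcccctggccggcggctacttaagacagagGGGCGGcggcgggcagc
IRS1: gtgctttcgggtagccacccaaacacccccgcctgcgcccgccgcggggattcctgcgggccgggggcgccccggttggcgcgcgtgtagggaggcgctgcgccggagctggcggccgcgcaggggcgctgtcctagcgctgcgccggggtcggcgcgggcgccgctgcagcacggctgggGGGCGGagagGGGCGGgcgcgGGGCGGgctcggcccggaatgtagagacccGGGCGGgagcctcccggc

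The IGF2R window held 3 E-boxes, starting 132, 74 and 28 bases before the start, whereas 6.34% of all 35116 promoter windows of the same length held at least 1. It also held 6 GC boxes and 2 half-sites, and 1 half-site shares bases with the E-box furthest from the start. The IGFBP4 window held a TATA box 29 bases before the start (10.7% of windows hold one), a half-site and a GC box. The IGFBP6 window held a single GC box and the IRS1 window 4 (42.6% of windows hold one), and neither held a half-site, which 33.8% of windows hold. The E2F motifs, found in 2.32% of windows, matched in none of the 4 windows. These matches describe letters in the windows and say nothing of binding. Windows of 8 of the 10 genes were in the RefSeq table used, and IGF2 and IGFBP7 were not among them.

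The first question was how each agent alone, and both together, altered expression of the axis. A gene is said to have risen or fallen where 2 conditions were met, an adjusted p below 0.05 in edgeR's quasi-likelihood test and a log2 fold change beyond 0.5 in either direction. With RA, 5 of the 10 genes rose (IGF2, IGF2R, IGFBP3, IGFBP5 and IGFBP6) and 0 fell, where 13.3% of all genes tested changed, 10.8% upwards and 2.54% downwards. With 0 falls by this test, 1 gene (IRS1) was lower at an unadjusted p below 0.05. Its adjusted p of 0.0350 was below 0.05 too, but its log2 fold change of -0.32 stayed within the fold minimum. DESeq2 and limma-voom also called 0 falls. With PB, 6 changed, where 28.2% of all genes did (16.9% upwards and 11.3% downwards): IGF2R, IGFBP2 and IGFBP7 rose, and IGFBP4, IGFBP6 and IRS1 fell. With PB+RA, 7 changed, where 41.9% of all genes did (24.0% upwards and 17.9% downwards): IGF2, IGF2R, IGFBP3, IGFBP5 and IGFBP6 rose, and IGFBP4 and IRS1 fell. The median log2 fold change of the 10 genes was 0.41 with RA, 0.17 with PB and 0.75 with PB+RA, against 0.01, 0.03 and 0.04 for all genes tested. Over all genes, a correction for GC content and length with the replicate number as a block changed the split of calls from 1661 higher and 392 lower to 1528 and 908 with RA, from 2606 and 1746 to 2244 and 2221 with PB, and from 3698 and 2757 to 3172 and 3376 with both agents, the falls then being more numerous. That corrected fit tested 14682 genes in place of 15415. The block alone, without the correction, gave 2007 higher and 509 lower with RA, 2878 and 1865 with PB, and 3909 and 2863 with both agents. These 3 comparisons share the DMSO samples. Groups whose samples did not overlap at all were common. Against DMSO this held for 37.2% of all genes tested with RA, 49.9% with PB and 58.2% with PB+RA. Among the 10 genes the shares were 40%, 50% and 50%. For PB+RA it held for 31.45% of all genes against PB and 46.7% against RA, beside 40% and 30% of the 10.

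**Figure D1:**
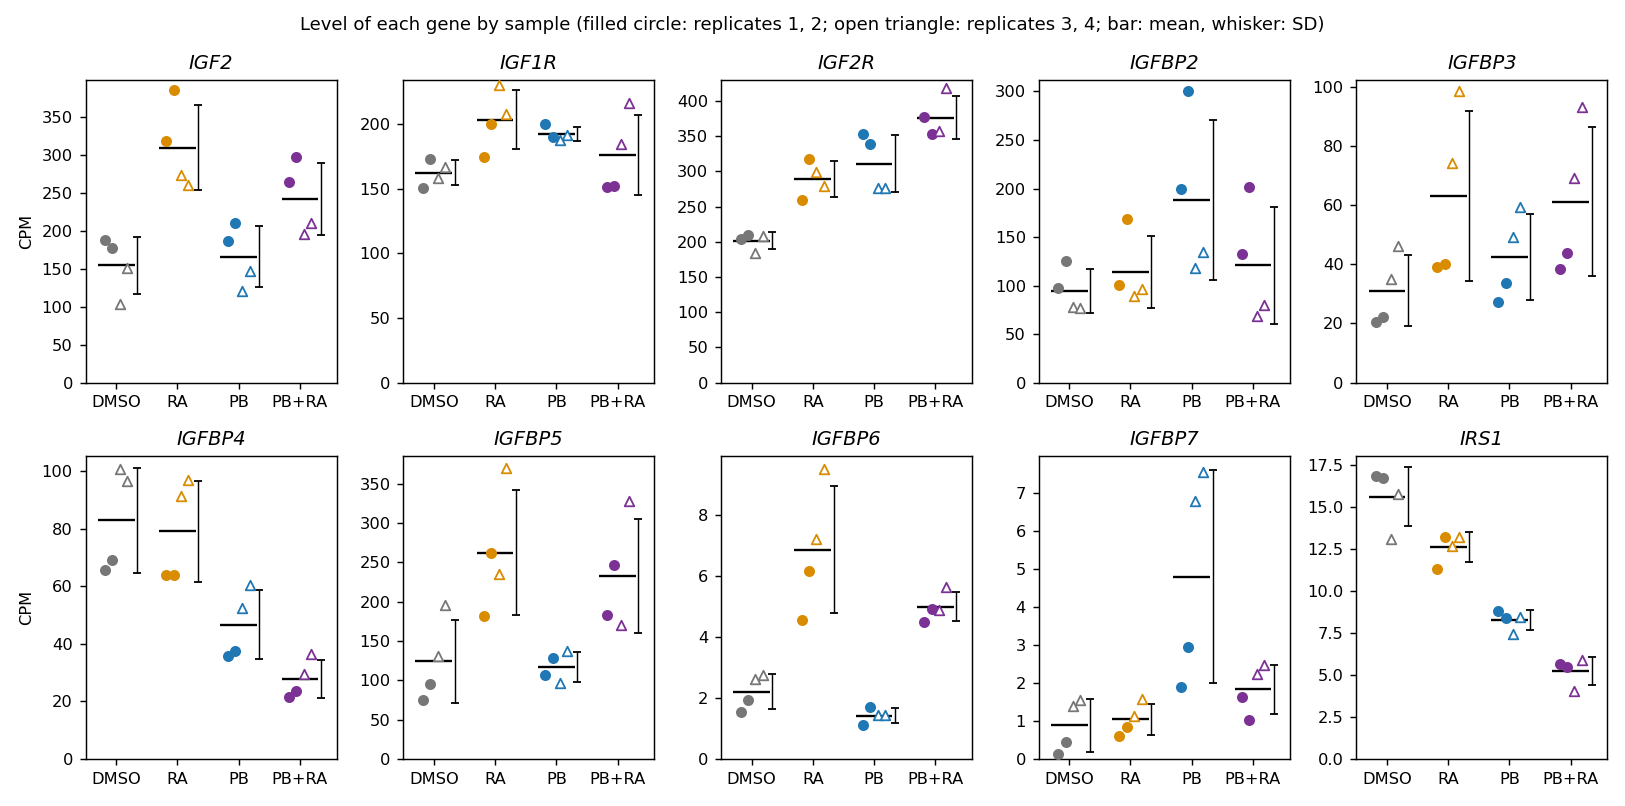
CPM of each gene (vertical axis, from 0) in each sample by group, with filled circles for replicates 1 and 2, open triangles for replicates 3 and 4, a bar for the mean and a whisker for the SD (n = 4). IGF2 stood at 260 to 385 CPM in RA against 103 to 187 in DMSO, and IRS1 at 4.04 to 5.89 CPM in PB+RA against 13.1 to 16.8.

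IGF2 (chr11:2150342-2179621, minus strand, here and below from GENCODE models on GRCh37, the assembly hg19) rose with RA and with PB+RA. Its level in replicates 1 to 4 was 187, 177, 103 and 151 CPM in DMSO and 319, 385, 273 and 260 CPM in RA. All RA samples thus lay above all DMSO samples, and the log2 fold change was 0.99 ± 0.21 (SE, adjusted p = 0.00204), a 1.99-fold rise that was called in every other fit tried and lies just short of a stricter log2 fold minimum of 1. In PB the level was 187, 211, 120 and 147 CPM, which overlaps the DMSO values, with a log2 fold change of 0.10 ± 0.21 (adjusted p = 0.699). PB+RA gave 264, 297, 196 and 211 CPM, above every DMSO sample and below RA of the same replicate number in each case. The log2 fold change of PB+RA against DMSO was 0.62 ± 0.21 (adjusted p = 0.0162). Without DMSO replicate 3 (0.46), PB+RA replicate 1 (0.54) or PB+RA replicate 2 (0.48) it was not called, nor within replicates 3 and 4 (0.61) or with no filter on low counts (0.59), and a correction for GC content and length with the replicate block lowered the value to 0.39.

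The IGF2 locus is compact, and 333 exon bases of IGF2 (4.66%) lie opposite exons of the antisense gene IGF2-AS. On the same strand, IGF2 shares 2711 exon bases (37.9%) with a protein-coding gene that has no symbol. It shares 1460 (20.4%) with INS-IGF2, and neither gene is in the count table. The sources used here give neither the annotation release nor whether the counting used strand. How reads in any of these shared bases were assigned is therefore not known. IGF2-AS rose with RA by 0.98 ± 0.11 (log2, adjusted p = 8.35e-06) and with PB+RA by 0.53 ± 0.11 (adjusted p = 0.000567), and its counts were between 0.117 (PB+RA) and 0.128 (DMSO) of those of IGF2 as group means. H19, the neighbouring long non-coding RNA that is normally expressed from the maternal allele, had 22.6, 30.2, 12.3 and 14.9 CPM in DMSO, 37.7, 71.9, 18.99 and 21.0 in RA, 9.22, 18.9, 3.52 and 5.57 in PB, then 11.3, 20.5, 3.35 and 3.59 in PB+RA. Relative to DMSO, its log2 fold change stood at 0.90 ± 0.60 for RA, -1.11 ± 0.63 for PB and -1.07 ± 0.62 for PB+RA, none of which passed the test (adjusted p = 0.263, 0.151 and 0.145). With the replicate number as a block all 3 did, at 0.78 ± 0.17 for RA (adjusted p = 0.00184), -1.25 ± 0.19 for PB (adjusted p = 8.59e-05) and -1.25 ± 0.19 for PB+RA (adjusted p = 5.51e-05). In each replicate number H19 was above DMSO in RA and below it in PB and PB+RA. Against RA, H19 fell in PB+RA by 1.96 ± 0.63 (log2, adjusted p = 0.0156).

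Of the receptors, IGF2R rose with every treatment and IGF1R with none. IGF2R (chr6:160390114-160534539, plus strand) stood at 205, 210, 184 and 208 CPM in DMSO, 259, 318, 299 and 280 in RA, 353, 339, 276 and 277 in PB, and 377, 353, 358 and 419 in PB+RA. Each treated sample exceeded each DMSO sample, and each PB+RA sample exceeded each sample of RA. PB raised it by 0.62 ± 0.083 (log2, adjusted p = 9.32e-06), RA by 0.51 ± 0.083 (adjusted p = 0.000211) and the combination by 0.87 ± 0.084 (adjusted p = 1.05e-07). The RA value lies close to the fold minimum and dropped under it in 9 of 19 other fits, among them DESeq2 and its size factors (both 0.48) and the fits without DMSO replicate 1 (0.49), DMSO replicate 3 (0.45), RA replicate 2 (0.45) or RA replicate 3 (0.47), with adjusted p from 8.62e-07 to 0.00233 over all 19. The PB value was 0.46 within replicates 3 and 4, and correction for GC content and length with the replicate block gave 0.38 for PB and 0.28 for RA.

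IGF1R (chr15:99191768-99507759, plus strand) measured 151, 173, 158 and 167 CPM in DMSO, 175, 200, 230 and 208 in RA, 200, 190, 188 and 191 in PB, and 152, 153, 184 and 216 in PB+RA. RA and PB samples all lay above those of DMSO, while PB+RA overlapped it. Its log2 fold changes of 0.32 ± 0.097 with RA (adjusted p = 0.0184) and 0.24 ± 0.097 with PB (adjusted p = 0.0436) stayed under the fold minimum, and with PB+RA the value was 0.09 ± 0.097 (adjusted p = 0.436). Per kilobase, the ratio of IGF2R to IGF1R was 1.08 ± 0.0709 (SD, n = 4) in DMSO, 1.24 ± 0.115 with RA, 1.41 ± 0.159 with PB and 1.89 ± 0.240 with both agents. The lowest PB+RA sample had a ratio of 1.69, above the highest of any other group, 1.55 in PB. INSR, the insulin receptor, which pairs with IGF1R in hybrid receptors, did not pass the test in any of these comparisons (log2 fold change 0.26 with RA, -0.14 with PB, 0.01 with PB+RA), and IGF1R stood 5.11-fold above it per kilobase in DMSO.

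**Figure D2:**
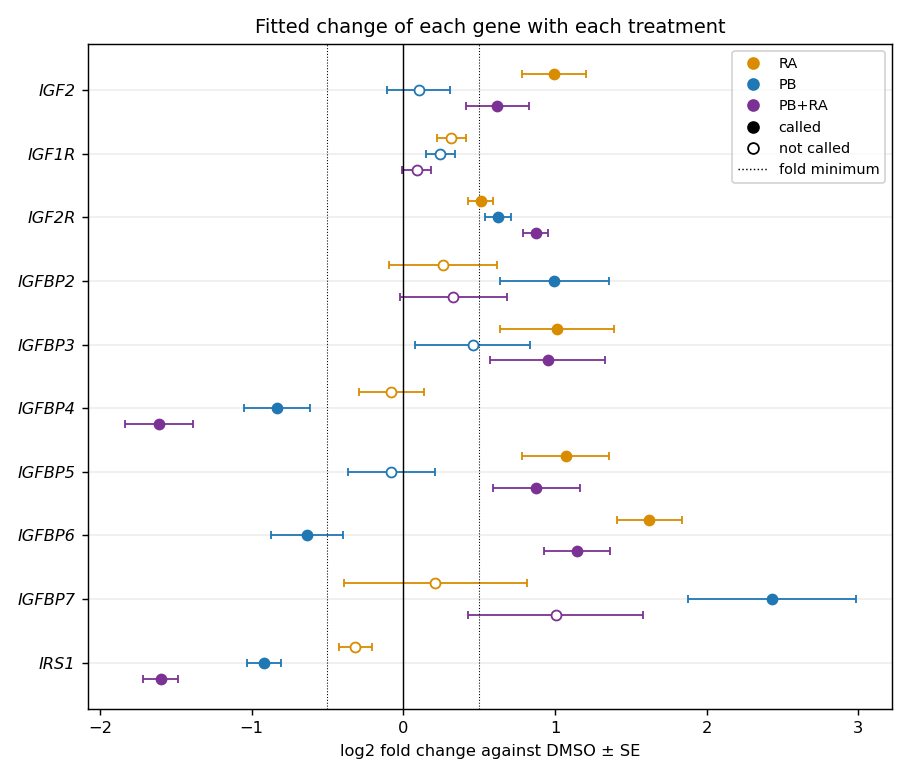
Log2 fold change against DMSO (horizontal axis) with its SE for the 10 genes with RA, PB and PB+RA, filled where the change passed both thresholds; dotted lines mark the fold minimum of 0.5. IGF2R lies to the right in each comparison, IGFBP4 and IRS1 lie far to the left with PB+RA (-1.61 and -1.60), and IGFBP7 is furthest right with PB (2.43).

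Among the binding proteins, IGFBP4 fell with PB and fell further with PB+RA. IGFBP4 (chr17:38599702-38613977, plus strand) is an inhibitory IGFBP that is inactivated by the protease PAPPA. It measured 65.7, 69.0, 101 and 96.7 CPM in DMSO, 64.0, 63.9, 91.5 and 97.0 in RA, 35.7, 37.5, 52.6 and 60.6 in PB, and 21.6, 23.8, 29.5 and 36.4 in PB+RA. RA samples overlapped those of DMSO, with a log2 fold change of -0.08 ± 0.21 (adjusted p = 0.802), whereas all PB and PB+RA samples lay below. PB changed it by -0.83 ± 0.22 (log2, adjusted p = 0.00465) and PB+RA by -1.61 ± 0.22 (adjusted p = 1.30e-05), which leaves 0.327 of the DMSO level. Against each agent alone, IGFBP4 in PB+RA differed by -0.78 ± 0.22 from PB (adjusted p = 0.0126) and by -1.53 ± 0.22 from RA (adjusted p = 3.61e-05). All 4 of these calls held in every other fit, and those of PB+RA against DMSO and against RA also at a log2 fold minimum of 1.

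IGFBP6 (chr12:53491220-53496129, plus strand), which prefers IGF2 over IGF1 as its ligand, rose with RA and PB+RA and fell with PB. The levels were low, at 1.53, 1.92, 2.63 and 2.75 CPM in DMSO, which correspond to 43 to 83 counts. RA gave 4.55, 6.15, 7.20 and 9.51 CPM and PB+RA 4.49, 4.92, 4.89 and 5.64 CPM, all above every DMSO sample. Both rises were called in every other fit and at a log2 fold minimum of 1, with log2 fold changes of 1.62 ± 0.22 for RA (adjusted p = 3.37e-05), a 3.08-fold increase, and 1.14 ± 0.22 for PB+RA (adjusted p = 0.000197). PB gave 1.12, 1.69, 1.43 and 1.45 CPM, which overlaps DMSO, and the log2 fold change of -0.64 ± 0.24 (adjusted p = 0.0334) was lost without DMSO replicate 3 (-0.56), DMSO replicate 4 (-0.52) or PB replicate 1 (-0.55), in limma-voom (-0.61) and within replicates 1 and 2 (-0.31), with adjusted p from 0.000907 to 0.404 over the alternatives.

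IGFBP5 and IGFBP3 rose with RA and with PB+RA but did not pass the test with PB. IGFBP5 (chr2:217536828-217560272, minus strand), a matrix-binding IGFBP, measured 75.1, 94.9, 131 and 196 CPM in DMSO, 182, 262, 236 and 370 in RA, 107, 129, 96.0 and 137 in PB, and 183, 247, 170 and 329 in PB+RA. RA and PB+RA were above DMSO of the same number in 4 of 4 replicates, although the ranges overlapped. RA raised it by 1.07 ± 0.29 (log2, adjusted p = 0.01) and PB+RA by 0.88 ± 0.29 (adjusted p = 0.0146), and the value for PB was -0.08 ± 0.29 (adjusted p = 0.836). Within replicates 3 and 4 the RA and PB+RA values, 0.84 and 0.54, were not called, and the PB+RA call also failed without DMSO replicate 2 (0.74) or without replicate 4 of PB+RA (0.66). Of the exon bases of IGFBP5, 487 (7.53%) lie opposite DIRC3-AS1, which averaged 2.62 CPM, and how reads there were counted is not known.

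IGFBP3 (chr7:45951844-45961473, minus strand), the main IGF carrier of serum, measured 20.6, 22.2, 34.9 and 46.2 CPM in DMSO, 39.1, 40.2, 74.2 and 98.4 in RA, 27.4, 33.5, 49.2 and 59.5 in PB, and 38.4, 43.9, 69.3 and 93.3 in PB+RA. In every replicate number each treated sample was above DMSO, but replicates 3 and 4 of DMSO overlapped replicates 1 and 2 of the treated groups. RA changed it by 1.01 ± 0.38 (log2, adjusted p = 0.0499) and PB+RA by 0.95 ± 0.38 (adjusted p = 0.0379), and the PB value was 0.46 ± 0.38 (adjusted p = 0.329). The RA and PB+RA calls were lost without DMSO replicate 1 (0.83 and 0.79), 2 (0.87 and 0.79) or 3 (1.05 and 1.01), without replicate 3 of the treated group (0.90 and 0.85), without its replicate 4 (0.69 and 0.67) and with no filter on low counts (0.98 and 0.92). The RA call was also lost in limma-voom (0.97, adjusted p = 0.0581), with DESeq2's size factors (0.98, adjusted p = 0.0539) and in the fit of RA and DMSO alone (1.01, adjusted p = 0.0804). Both were called with the replicate number as a block.

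IGFBP2 and IGFBP7 rose with PB and did not pass the test with RA or PB+RA. IGFBP2 (chr2:217497551-217529159, plus strand), an IGFBP of the developing nervous system, measured 97.1, 126, 77.5 and 76.9 CPM in DMSO, 199, 300, 118 and 135 in PB, 101, 169, 88.7 and 96.1 in RA, and 133, 201, 68.3 and 80.4 in PB+RA. PB was above DMSO of the same number in 4 of 4 replicates, with a log2 fold change of 1.00 ± 0.36 (adjusted p = 0.0286). That call was lost without DMSO replicate 1 (0.99), 3 (0.89) or 4 (0.91) and without PB replicate 1 (0.95) or 2 (0.65), with no filter on low counts (0.96) and within replicates 1 and 2 (1.16), with adjusted p from 0.0586 to 0.146 in those fits and from 6.13e-06 to 0.146 over all alternatives. The values for RA and PB+RA were 0.26 ± 0.36 (adjusted p = 0.607) and 0.33 ± 0.36 (adjusted p = 0.430).

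IGFBP7 (chr4:57896939-57976551, minus strand), which binds IGFs only weakly and also binds insulin, was the lowest of the 10 genes. It had 0.142, 0.448, 1.39 and 1.55 CPM in DMSO, which are 4, 11, 44 and 40 counts, and 0.614, 0.849, 1.13 and 1.58 CPM in RA. PB samples, at 1.89, 2.95, 6.80 and 7.56 CPM, lay above all of these, and PB+RA samples, at 1.63, 1.02, 2.22 and 2.46 CPM, lay between, overlapping both DMSO and PB. The log2 fold change with PB was 2.43 ± 0.55 (adjusted p = 0.00169), 5.38-fold, and it was called in every other fit and at a log2 fold minimum of 1, with values from 2.05 to 3.04. With PB+RA it was 1.01 ± 0.58 (adjusted p = 0.137), which became 1.11 (adjusted p = 0.00160) with the replicate block and was also called within replicates 1 and 2 (2.17) and 3 and 4 (0.60), where adjusted p ranged from 0.00160 to 0.305 over the alternatives. Of its exon bases, 260 (13.5%) lie opposite POLR2B, which averaged 316 CPM. How reads in those bases were counted is not given in the sources used here, so their effect on these low counts is not known.

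IRS1 (chr2:227596028-227664536, minus strand), the adaptor between the activated receptor and PI3K, fell with PB and PB+RA. It measured 16.8, 16.8, 13.1 and 15.8 CPM in DMSO, 11.3, 13.2, 12.7 and 13.2 in RA, 8.80, 8.37, 7.41 and 8.42 in PB, and 5.65, 5.45, 4.04 and 5.89 in PB+RA. All PB samples lay below all DMSO and RA samples, and all PB+RA samples below all PB samples. PB changed it by -0.92 ± 0.11 (log2, adjusted p = 4.05e-06) and the combination by -1.60 ± 0.12 (adjusted p = 3.66e-09), to 0.330 of the DMSO level. Both were called in every other fit, and the PB value lies under a log2 fold minimum of 1. With RA the value was -0.32 ± 0.11 (adjusted p = 0.0350), under the fold minimum.

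The second question was whether the combination differed from each agent alone. Against PB, 5 of the 10 genes differed in PB+RA, where 16.3% of all genes tested did (9.02% upwards and 7.27% downwards). IGFBP6 rose by 1.78 ± 0.23 (log2, adjusted p = 1.90e-05) and IGFBP5 by 0.96 ± 0.29 (adjusted p = 0.0174). IGFBP4 fell, as given above, and so did IRS1 (-0.68 ± 0.12, adjusted p = 0.000285) and IGFBP7 (-1.42 ± 0.52, adjusted p = 0.0434). The IGFBP7 call was lost without PB replicate 3 (-1.19) or 4 (-1.12) and without each of PB+RA replicates 1 (-1.38), 2 (-1.23), 3 (-1.54) and 4 (-1.57), as well as in limma-voom (-1.25), with no filter on low counts (-1.42) and within replicates 1 and 2 (-0.87), and the IGFBP5 call without PB+RA replicate 4 (0.76) and within either pair of replicates (0.85 in 1 and 2, 1.06 in 3 and 4). IGF2 and IGFBP2 did not pass edgeR's test (0.52, adjusted p = 0.0634, and -0.67, adjusted p = 0.158), whereas DESeq2 called IGF2 higher (0.52, adjusted p = 0.0260), and with the replicate block both passed, at 0.52 (adjusted p = 3.20e-05) and -0.69 (adjusted p = 0.000786). Over the alternatives these adjusted p-values ranged from 3.20e-05 to 0.172 for IGF2, which was also called without PB replicate 2 (0.65) or without replicate 3 of PB+RA (0.61), and from 2.76e-06 to 0.492 for IGFBP2, also called without PB+RA replicate 2 (-1.03) and within replicates 3 and 4 (-0.80).

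Against RA, 2 of the 10 genes fell in PB+RA, IGFBP4 and IRS1 (-1.28 ± 0.12, adjusted p = 1.20e-07), and 0 rose, where 29.0% of all genes changed (14.9% upwards and 14.1% downwards). For rises, edgeR's count of 0 stood beside 1 gene (IGF2R) higher at an unadjusted p below 0.05, and DESeq2 and limma-voom also called 0 rises. IGF2R was higher in all 4 PB+RA samples than in all RA samples, with a log2 difference of 0.36 ± 0.083 (adjusted p = 0.00146) that stayed under the fold minimum. IGFBP6 differed by -0.48 ± 0.21 (adjusted p = 0.0597) and was called lower without RA replicate 1 (-0.64) and within replicates 3 and 4 (-0.68). With the replicate block IGFBP7 was called higher than in RA, at 0.83 (adjusted p = 0.0143), as it was within replicates 3 and 4 (0.79), where adjusted p ranged from 0.00889 to 0.452 over the alternatives.

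The interaction compares the combination with its parts: the log2 fold changes of both single agents, added up, are taken from that of PB+RA, so that 0 stands for additive effects on the log2 scale. By edgeR 0 of the 10 genes were called for it, where 3.44% of all genes were (0.415% above and 3.02% below additive), and DESeq2 and limma-voom also called 0, while 4 (IGF1R, IGF2R, IGFBP4 and IRS1) had an unadjusted p below 0.05. The value was negative for 9 of the 10 genes, the exception being IGFBP6 (0.16), with a median of -0.47 against -0.04 for all genes. The labels do not say whether samples of the same replicate number were handled together. The fit was also made with that number as a block, which lowered the SE of every one of the 10 values. In that fit 4 genes were called below additive, where 7.60% of all genes were called: IGFBP4 (-0.69 ± 0.078, adjusted p = 4.56e-06), IGFBP3 (-0.51 ± 0.082, adjusted p = 0.000186), IGFBP2 (-0.93 ± 0.18, adjusted p = 0.00463) and IGFBP7 (-1.61 ± 0.39, adjusted p = 0.00717).

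The blocked interaction values describe unlike patterns. For IGFBP4, PB gave a fall and RA a value near 0, and PB+RA lay below what their sum gives. For IGFBP7 and IGFBP2 the rise with PB was not seen at the same size in PB+RA. For IGFBP3 the values with RA and with PB+RA were nearly equal. IGF2 and IGF1R had adjusted p below 0.05 with the block but stayed within the fold minimum, both at -0.48 (adjusted p = 0.00561 and 0.0109). Without RA replicate 1 or PB+RA replicate 4, IGF1R was called even without the block (-0.52 and -0.54), as it was within replicates 1 and 2 (-0.58). Also without the block, IGFBP4 was called within either pair of replicates (-0.63 in 1 and 2, -0.69 in 3 and 4), and IGFBP7 (-1.46) and IGFBP2 within replicates 3 and 4. Over the alternatives the interaction's adjusted p ranged from 4.56e-06 to 0.521 for IGFBP4, 0.000186 to 0.920 for IGFBP3, 6.91e-05 to 0.627 for IGFBP2, 0.00628 to 0.552 for IGFBP7, 0.00561 to 0.714 for IGF2 and 0.0109 to 0.183 for IGF1R.

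**Figure D3:**
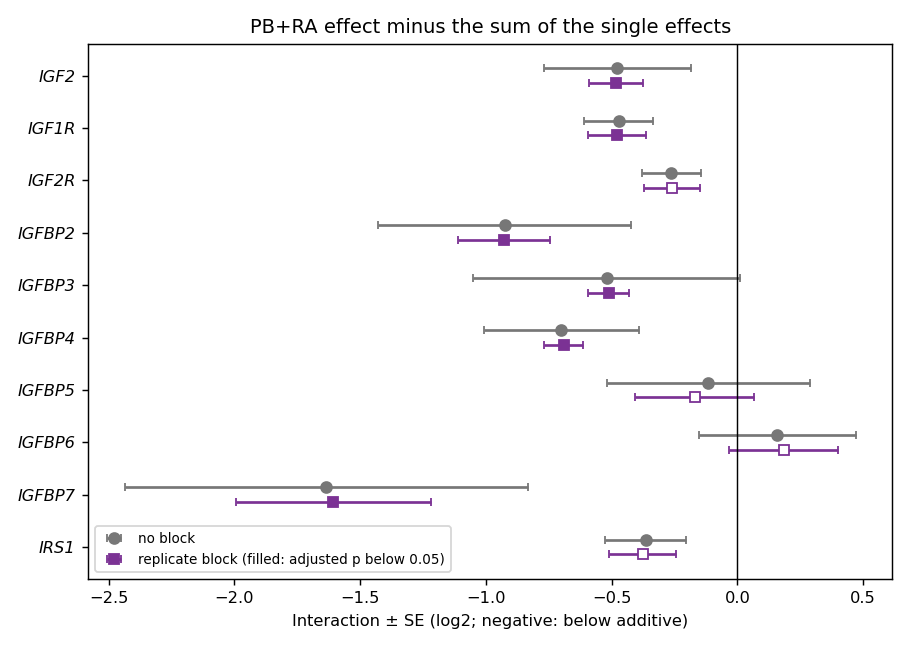
Interaction of PB and RA for the 10 genes (horizontal axis, log2, with SE), without (circles) and with (squares) the replicate number as a block; squares are filled where the adjusted p with the block was below 0.05. Values differ little between the fits, such as -0.70 and -0.69 for IGFBP4, while the error bars are narrower with the block.

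The summed level of the binding proteins overlapped between groups, while the shares held by IGFBP4 and by IGFBP6 did not overlap between DMSO and PB+RA. Per kilobase, IGFBP2 to IGFBP7 summed to 139 ± 13.7 CPM (SD, n = 4) in DMSO, 190 ± 32.6 with RA, 194 ± 51.0 with PB and 165 ± 38.8 with both agents, ranges that overlap. The share of IGFBP4 was 27.1% ± 5.03 in DMSO, 19.1% ± 3.99 with RA, 11.7% ± 4.95 with PB and 8.01% ± 2.79 with both agents. Its highest PB share, 16.1%, and its highest PB+RA share, 11.0%, were both below its lowest DMSO share, 21.4%. Its RA shares overlapped those of DMSO. The share of IGFBP2 was 48.4% ± 12.4, 42.4% ± 11.6, 66.5% ± 12.8 and 50.1% ± 15.95 in the same order. IGFBP5 held 14.1% ± 5.01 in DMSO, 21.8% ± 3.50 with RA, 9.98% ± 2.06 with PB and 22.7% ± 5.83 with both agents. The remaining shares were at most 15.0% for IGFBP3, 3.77% for IGFBP6 and 1.93% for IGFBP7 as group means. Small as it was, the IGFBP6 share lay apart from DMSO (1.34% to 2.00%) in each treated group. It was 3.05% to 4.56% with RA, 0.628% to 1.02% with PB and 2.41% to 4.23% with both agents. With the length of all exons in place of the canonical transcript, a choice made after the data were seen, IGFBP2 held 24.3% and IGFBP4 43.9% in DMSO, and IGFBP4 held 13.9% in PB+RA, again the lowest of its 4 group means. IGF2 relative to the summed IGFBPs was 0.202 ± 0.0617 in DMSO, 0.298 ± 0.0726 with RA, 0.154 ± 0.0166 with PB and 0.266 ± 0.0383 with both agents.

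**Figure D4:**
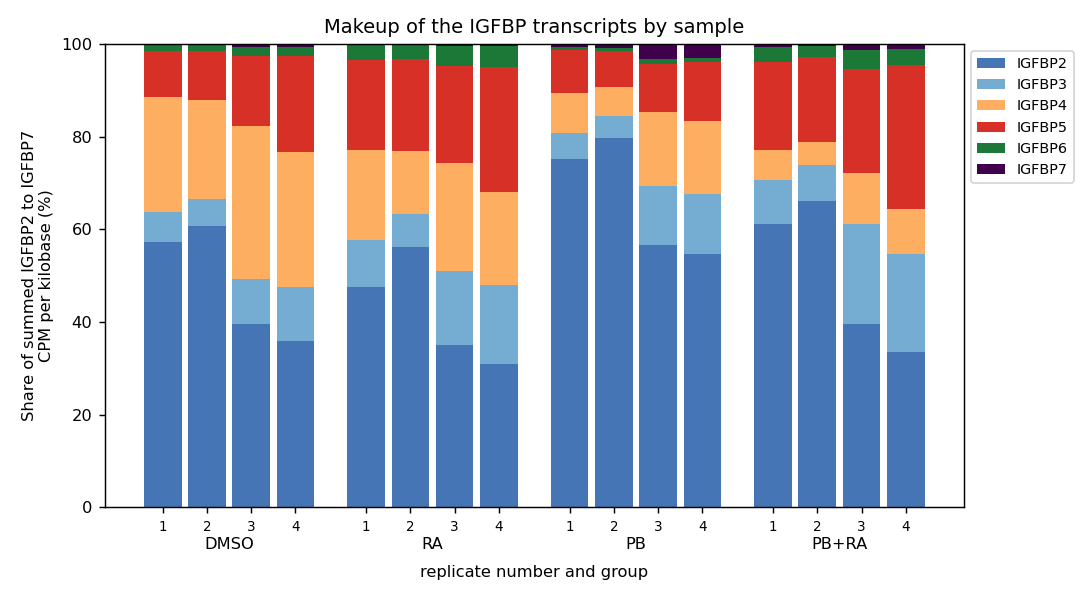
Share of each IGFBP in the summed IGFBP2 to IGFBP7 CPM per kilobase (vertical axis, percent) in each of the 16 samples, ordered by group and replicate number. The IGFBP4 band narrows from 21.4% to 33.0% in DMSO to 5.01% to 11.0% in PB+RA, and the IGFBP2 band is wider in replicates 1 and 2 than in replicates 3 and 4 of each group.

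Several of the genes differed between replicates 1 and 2 and replicates 3 and 4, in the same direction in all 4 groups. The ratio of the mean of replicates 3 and 4 to that of 1 and 2 was 1.79 to 2.18 for IGFBP3, 1.45 to 1.55 for IGFBP4 and 1.77 to 4.98 for IGFBP7, with both samples above both others in each group. It was 0.445 to 0.693 for IGFBP2, 0.672 to 0.758 for IGF2 and 0.219 to 0.514 for H19, with both samples below. By the size of this difference, IGFBP7 stood at the 99.1 percentile of all genes tested, IGFBP3 at 97.8, IGFBP2 at 96.4, IGFBP4 at 93.1 and IGF2 at 91.2. The labels do not say what the replicate numbers share, and within each pair of replicates the groups are balanced. IGF2R and IRS1 differed little in this respect, at the percentiles 32.3 and 44.1.

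Outside the 10 genes, 60 further genes of the IGF and insulin pathway were examined, of which 59 were in the table and 50 were tested. With RA 11 rose and 1 fell, so 12 of the 50 changed, where 13.3% of all genes did. With PB 11 rose and 5 fell (16 of 50, beside 28.2% of all genes), and with PB+RA 18 rose and 5 fell (23 of 50, beside 41.9%), both shares near those of all genes. The median log2 fold change of these genes was 0.14, 0.19 and 0.25. Of 8 proteases of binding proteins and inhibitors of these, 3 rose with RA, 4 with PB and 5 with PB+RA, and 1 fell, with PB. That is 37.5%, 62.5% and 62.5% of 8 genes, beside 13.3%, 28.2% and 41.9% of all genes. This set is small, was chosen with earlier results of these data known, and was not tested against all genes. PAPPA, PAPPA2, HTRA1 and ADAM28, all in the set, averaged at most 2.73 CPM over the 16 samples. PAPPA rose with each treatment, from 0.611 to 1.39 CPM in DMSO to 1.66 to 5.23 with RA, 2.04 to 4.46 with PB and 2.51 to 4.92 with both agents, with log2 fold changes of 1.80 ± 0.38 (adjusted p = 0.00199), 1.88 ± 0.39 (adjusted p = 0.000651) and 1.98 ± 0.38 (adjusted p = 0.000266). Its relative PAPPA2, also a protease of IGFBPs, had 7 counts over the 4 DMSO samples, 53 with RA, 14 with PB and 54 with both, and rose with RA (adjusted p = 0.000210) and PB+RA (adjusted p = 2.92e-05). Both are low genes that were named after their values were seen. STC2, a stanniocalcin that inhibits PAPPA, rose by 1.48 ± 0.31 with RA (log2, adjusted p = 0.00220), 1.00 ± 0.32 with PB (adjusted p = 0.0149) and 1.05 ± 0.31 with both (adjusted p = 0.00834). STC1, the other stanniocalcin of the list, was not called with RA (0.34, adjusted p = 0.362), PB (0.31, adjusted p = 0.356) or both. ADAM9, a metalloprotease that can cleave IGFBP5, fell with PB (-0.57, adjusted p = 0.000424), and ADAM12, which can cleave IGFBP3 and IGFBP5, rose with PB (0.54, adjusted p = 0.00245). KAZALD1, a secreted protein related to the IGFBPs, fell in all 3 comparisons, by 1.98 ± 0.15 on the log2 scale with PB+RA (adjusted p = 6.34e-09).

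Of 2 further receptors tested, the orphan insulin receptor relative INSRR rose with each treatment. It measured 30.8, 20.6, 19.3 and 22.0 CPM in DMSO and 113, 98.2, 72.1 and 72.8 CPM in PB+RA, a log2 fold change of 1.92 ± 0.18 (adjusted p = 1.38e-07), beside 0.52 with RA and 0.77 with PB. All PB+RA samples were above all samples of the other groups.

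Among 13 adaptors and brakes of the receptor tested, 2 rose with RA, 2 rose and 1 fell with PB, and 5 rose and 1 fell with PB+RA, which is 15.4%, 23.1% and 46.2% of them beside 13.3%, 28.2% and 41.9% of all genes. IRS2, the relative of IRS1, rose with PB (0.65 ± 0.14, adjusted p = 0.00111) and PB+RA (0.55 ± 0.14, adjusted p = 0.00291), opposite in direction to IRS1, and had a value of 0.44 with RA. It measured 81.7, 93.6, 64.0 and 58.7 CPM in DMSO and 128, 139, 106 and 95.1 CPM in PB. SOCS2, a suppressor of cytokine and growth hormone signalling, rose with RA (1.43 ± 0.14, adjusted p = 1.85e-06), PB (0.62 ± 0.14, adjusted p = 0.00118) and PB+RA (1.06 ± 0.14, adjusted p = 4.27e-06), and its interaction was called below additive (-0.99 ± 0.19, adjusted p = 0.00648). SHC1, an adaptor that links receptors to RAS, rose with RA (0.57) and PB+RA (0.62), and the adaptor SH2B2 rose with PB+RA (0.73).

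Among 20 genes of PI3K, AKT and FOXO, 4 rose with RA, 4 rose and 1 fell with PB, and 6 rose and 1 fell with PB+RA. Over all genes 13.3%, 28.2% and 41.9% changed. The share of these 20 was above that of all genes with RA and below it with PB and PB+RA. The set is small, and whether its shares differ from those of all genes was not tested. PIK3R1, a regulatory subunit of PI3K, measured 101, 109, 147 and 126 CPM in DMSO and 447, 468, 634 and 565 CPM in PB+RA. It rose by 1.29 ± 0.14 (log2) with RA (adjusted p = 6.08e-06), 1.23 ± 0.14 with PB (adjusted p = 2.06e-06) and 2.10 ± 0.14 with both (adjusted p = 2.54e-09). PIK3R2, another regulatory subunit, rose with PB (1.34 ± 0.10, adjusted p = 3.38e-08) and PB+RA (1.07 ± 0.10, adjusted p = 1.53e-07) but not with RA (0.05). FOXO3 and FOXO4, transcription factors that AKT keeps out of the nucleus, rose with RA (0.72 and 0.71) and PB+RA (0.96 and 1.14), and FOXO3 also with PB (0.60). FOXO1, of the same family, fell with PB (-1.38 ± 0.44, adjusted p = 0.0148), from 1.46 to 3.02 CPM in DMSO to 0.190 to 1.67 CPM, and had values of 0.13 with RA and -0.22 with PB+RA; it was too low for the naming rule and is given because it was the 1 fall with PB. AKT1 fell with PB+RA (-0.52, adjusted p = 4.98e-06). IGF2BP1, which binds IGF2 mRNA, fell with PB+RA (-0.68, adjusted p = 0.000853) and had values of -0.47 with PB and 0.14 with RA.

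**Figure D5:**
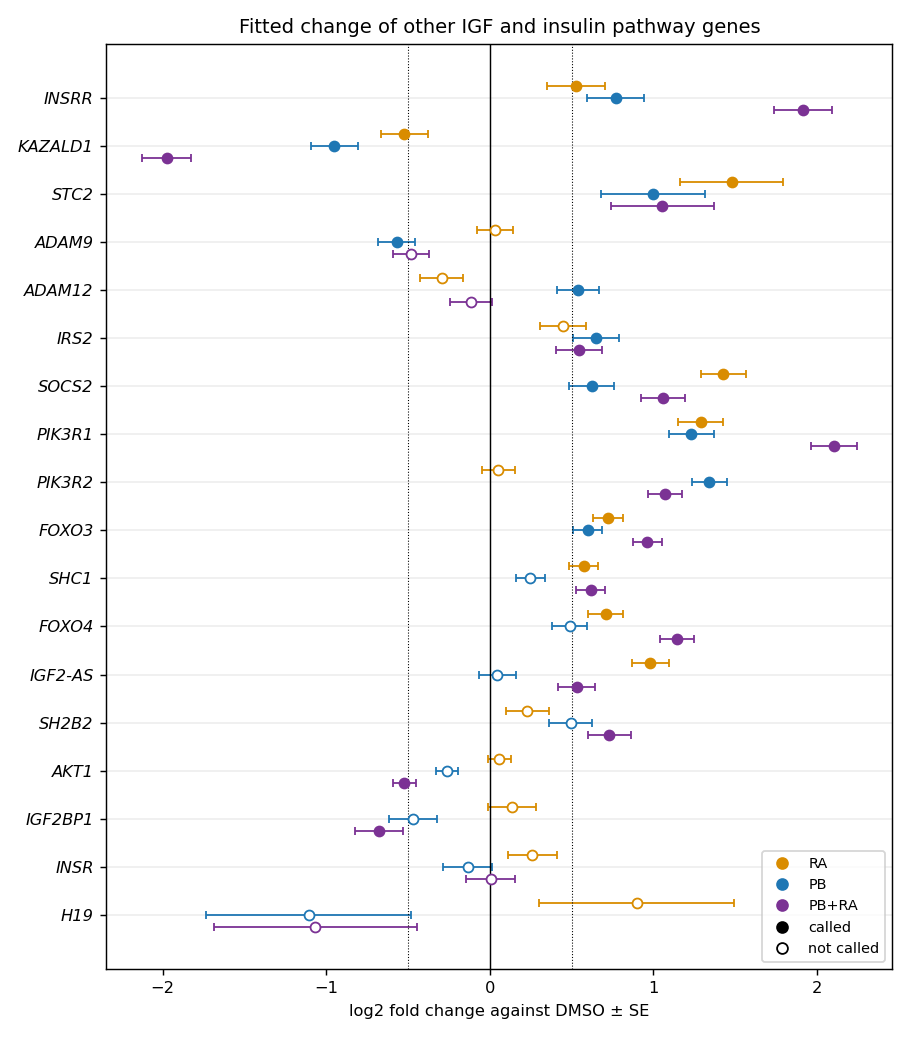
Log2 fold change against DMSO (horizontal axis, with SE) of the other IGF and insulin pathway genes named by rule, with RA, PB and PB+RA, filled where called; dotted lines mark the fold minimum. PIK3R1 and INSRR reach 2.10 and 1.92 with PB+RA, and KAZALD1 lies furthest left at -1.98.

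Against the single agents, 5 pathway genes rose and 3 fell in PB+RA relative to PB (8 of 50, beside 16.3% of all genes), and 4 rose and 7 fell relative to RA (11 of 50, beside 29.0%). For the interaction 1 was called above and 3 below additive (4 of 50, beside 3.44% of all genes). With the replicate block 9 were called, where 7.60% of all genes were, and those gained were INSRR above additive (0.61) and PAPPA (-1.68), STC2 (-1.41), IRS2 (-0.55) and IGF2-AS (-0.50) below. PIK3R1 rose relative to both PB (0.87, adjusted p = 0.000129) and RA (0.81, adjusted p = 0.000107), as did INSRR (1.15, adjusted p = 0.000109, and 1.39, adjusted p = 7.16e-06).

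For each of the 9 genes called in at least 1 comparison, the genes of most similar pattern were taken as the 3 with the highest Pearson r of log2 CPM over the 16 samples, out of 10002 genes averaging 10 CPM or more. The samples are those of the same 4 groups, so r reflects the group differences and is given as a description. The leading genes were RIMKLB for IGF2 (r = 0.936), AGPAT4 for IGF2R (0.964), JAG2 for IGFBP2 (0.978), PRUNE1 for IGFBP3 (0.947), TCF12 for IGFBP4 (0.983), COL3A1 for IGFBP5 (0.954), NPR1 for IGFBP6 (0.971), GUCY1A1 for IGFBP7 (0.936) and ALDH7A1 for IRS1 (0.978). IGFBP5 and IGFBP6 had NPR1, a natriuretic peptide receptor, among their 3 in common (0.914 for IGFBP5). Further genes among these were DTX4 and LMCD1 for IGF2, GPR83 and RAB5A for IGF2R, C6orf120 and GDPD5 for IGFBP2, RIT1 and SMURF2 for IGFBP3, DYRK2 for IGFBP4, SAT1 for IGFBP5, TNS3 and FREM1 for IGFBP6, COLGALT2 and PRKACB for IGFBP7, and APOO and PIMREG for IRS1.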

How the data were processed

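RNA was measured by sequencing in 16 samples of SK-N-BE(2)C, 4 replicates in each of 4 groups taken from the sample titles. The authors selected polyadenylated RNA, made directional libraries read as paired ends, trimmed reads with Trim Galore 0.6.4 and aligned them to hg19 with STAR, per the labels and the study's methods. The submitters' processing notes give STAR 2.6.1d, and the study's list of software gives another patch release. The deposited counts are STAR's read counts per gene, not normalized. The annotation release and the strand setting are not given in the sources used here. The deposited CPM, which the authors scaled to library totals, matched the counts. The table of the authors' DESeq2 1.32.0 comparisons (log2 fold changes and adjusted p-values) was not used.

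Counts were fitted in R 4.3.3 with edgeR 4.0.16: filterByExpr (15415 of 27037 genes), TMM factors from 0.983 to 1.02, and 1 robust quasi-likelihood fit of all 16 samples with a coefficient per group. Each adjusted p is Benjamini-Hochberg adjusted over all genes tested, by edgeR's quasi-likelihood test unless another tool is named. Standard errors were derived from the size of each log2 fold change and its F statistic. Values per replicate are the deposited CPM. CPM per kilobase used canonical transcript lengths of GENCODE models mapped to GRCh37, which may not be the authors' annotation.

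Samples were paired here by the replicate number in their titles, which do not say what that number shares. Deviations from the group means correlated in all 24 such pairs (r from 0.330 to 0.573). Samples of unlike numbers were not compared in this way. Alternatives were DESeq2 1.42.0, limma-voom (limma 3.58.1), other scalings and filters, a replicate block with or without a GC and length offset (splines with 5 degrees of freedom, lengths and GC for 95.2% of genes), single replicates left out, and replicates 1 and 2 or 3 and 4 alone. A change of sign was counted as a reversal only where a value was called. The fit without a block was also run on simulated counts that held no replicate effect, so that run does not bear on the block. Precision from depth covers counting error only. The genes, the pathway list and the marker lists were chosen with earlier results of these data known. Named pathway genes were those called against DMSO with a mean of at least 10 CPM, and INSR, IGF1 and H19. Some marker genes and similar genes are not reported here, and the marker sums leave them out.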

Additional observations from a re-analysis of the deposited data

Results flagged for a closer look

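In a group of 4 samples, 1 value stood apart from the others. IGFBP2 in RA replicate 2 was 169 CPM, against 88.7 to 101 CPM in the other RA replicates, with a gap to its nearest neighbour of 0.852 of the group's range, beyond the 95% limit of Dixon's criterion. Replicate 2 was also the highest IGFBP2 sample of each of the other groups. Of 40 groups of values examined, chance alone flags about 1 in 20.

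The effect of PB differed with and without RA, by the test of the interaction with the replicate block, for 6 genes. The interaction was -0.48 for IGF2 (adjusted p = 0.00561), -0.48 for IGF1R (adjusted p = 0.0109), -0.93 for IGFBP2 (adjusted p = 0.00463), -0.51 for IGFBP3 (adjusted p = 0.000186), -0.69 for IGFBP4 (adjusted p = 4.56e-06) and -1.61 for IGFBP7 (adjusted p = 0.00717). Over all 16 samples without the block 0 of these passed, the lowest adjusted p being 0.0578 for IGF1R, while without RA replicate 1 or PB+RA replicate 4, or within a pair of replicates, IGF1R, IGFBP2, IGFBP4 and IGFBP7 were called in 1 or more fits. The range of adjusted p over the alternatives is given with the interaction results.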

How the results depend on the processing

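Of 25 calls among the 10 genes over the 5 comparisons and the interaction, 14 held in every other fit at the same thresholds, 8 of them also at a log2 fold minimum of 1, and no called value changed sign. A log2 fold minimum of 1 left 1 gene called with PB, 3 with each of RA and PB+RA, and 2 for PB+RA set against PB. For RA, DESeq2's size factors in edgeR and the absence of a filter on low counts left 3. Within replicates 1 and 2 the count was 3 against PB and 2 for the interaction, and within replicates 3 and 4 it was 4 against RA and 3 for the interaction. Leaving out 1 sample gave 4 to 6 genes for PB, 3 to 5 for RA, 5 to 7 for PB+RA, 3 to 6 against PB, 2 to 3 against RA and 0 to 1 for the interaction. The pairing by replicate number, used as a block, changed 8 calls among the 10 genes, each given in the report and each a gain (4 genes for the interaction, where the GC and length offset with the block gave 3), and changed none of their other calls. Among the pathway genes it added 14 calls to 74 and lost 0. For the pathway list, no fold minimum gave 31 genes with PB and 35 with both agents, and 20 against PB and 26 against RA, and a minimum of 1 gave 6 with PB, 5 with RA and 13 with PB+RA, then 3 against PB, 7 against RA and 0 for the interaction. Its interaction count of 4 became 1 with no filter on low counts, 9 with the replicate block, 8 with the block and offset, and 9 within replicates 3 and 4. Over all genes, the GC and length offset with the block turned the PB+RA calls from 3698 higher and 2757 lower to 3172 and 3376, and moved those of RA from 1661 and 392 to 1528 and 908 and those of the interaction from 64 and 466 to 298 and 734. The fit with the offset tested 14682 genes. With the block alone the calls were 3909 and 2863 for PB+RA, 2007 and 509 for RA, and 190 and 981 for the interaction. The causes of these shifts were not tested. Low counts limit IGFBP7 and IGFBP6 most.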
